A study of Homo sapiens with 6 samples.

Results

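Cadherins and the genes around the epithelial-mesenchymal transition (EMT) were followed by RNA sequencing in DU145 cells, a human CRPC cell line derived from a metastasis. The 10 genes were taken by name from the deposited table of 27381 genes: the cadherins CDH1, CDH2 and CDH3, the mesenchymal genes VIM and FN1, and the transcription factors SNAI1, SNAI2, ZEB1, ZEB2 and TWIST1. All 10 were found, and 7 of them reached 1 FPKM in every condition. There were 6 libraries, with 2 for each label: a control given Cas9 and a scrambled sgRNA (Scr), a CRISPR/Cas9 knockout of CD24 (CD24 KO) and one of RCC2 (RCC2 KO). CD24 is a small surface glycoprotein, and RCC2 is a regulator of chromosome condensation. The knockout lines were grown from GFP-sorted cells as clones, so a difference between conditions can also be one between clones, and the 2 cannot be told apart here. The authors deposited 1 FPKM value per gene and condition, a level that accounts for transcript length and sequencing depth. Both RCC2 KO libraries, or only the first of them, may be in the RCC2 KO column, since its name fits either reading. With 1 value per condition, no SD between libraries and no test can be given, and every difference is a description without a replicate check.

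Cadherins are calcium-dependent adhesion proteins that bind the same type of cadherin on the neighbouring cell and are tied to the actin cytoskeleton by catenins. During EMT, epithelial cells lose E-cadherin (CDH1) and gain mesenchymal proteins such as N-cadherin (CDH2), the intermediate filament vimentin (VIM) and fibronectin (FN1). The factors SNAI1, SNAI2, ZEB1, ZEB2 and TWIST1 drive the transition, and SNAI and ZEB proteins repress CDH1 by binding E-boxes of the sequence CACCTG in its promoter. The study addresses whether CD24 and RCC2 act on EMT in opposite ways. The RNA of these genes is given here.

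The columns were first checked against their labels. In the order Scr, CD24 KO and RCC2 KO, CD24 RNA was at 93.2, 309 and 214 FPKM and RCC2 RNA at 37.8, 14.2 and 41.8 FPKM. CD24 RNA was thus highest under the CD24 KO label, and RCC2 RNA was lowest under that same label and not under its own. Neither RNA was lower under its own knockout label, where CD24 was at 3.31 times and RCC2 at 1.10 times the Scr level. All directions given here depend on those labels. The CD24 entry is placed on chromosome Y, from 21034387 to 21438350. Whether its values come from the edited gene was not tested. The study describes checks of the clones by DNA sequence and by protein, neither of which is measured by these RNA levels. Values given as 3 numbers keep this order throughout. The epithelial identity of DU145 was visible in KRT8, KRT18, KRT19 and EPCAM, all between 44.9 and 348 FPKM in every condition. These 4 markers summed to 771, 447 and 819 FPKM. KRT8 (336, 149 and 348 FPKM), KRT18 (293, 141 and 305 FPKM) and EPCAM (58.9, 44.9 and 58.6 FPKM) were lowest under the CD24 KO label. KRT19 was highest there, at 83.5, 113 and 107 FPKM. KLK3, a prostate luminal marker, was listed at 0 in every condition. The 5 fibroblast markers summed to at most 0.885 FPKM in any condition, the 3 endothelial markers to at most 0.190 FPKM, and the leukocyte gene PTPRC was listed at 0. A level listed at 0 is not taken as absence of the RNA, because RNR2, a mitochondrial ribosomal RNA, was at 0 in the CD24 KO column but held 5.96% and 5.08% of all FPKM in the others.

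Promoter sequences are shown for the members in which regulatory motifs could be set beside a level, one whose level differed between conditions (FN1) and others whose level hardly did (VIM and ZEB1). RefSeq windows of the GRCh38.p14 build, from 250 bases before to 50 bases after a start site, matched 5 of the 10 genes. CDH1, CDH3, SNAI1, SNAI2 and TWIST1 had no entry. Capitals mark matches to CACCTG, which reads CAGGTG on the other strand, or to TGACGTCA, the cAMP response element for which the FN1 promoter is known.
FN1 (chr2:215436019-215436318, minus strand): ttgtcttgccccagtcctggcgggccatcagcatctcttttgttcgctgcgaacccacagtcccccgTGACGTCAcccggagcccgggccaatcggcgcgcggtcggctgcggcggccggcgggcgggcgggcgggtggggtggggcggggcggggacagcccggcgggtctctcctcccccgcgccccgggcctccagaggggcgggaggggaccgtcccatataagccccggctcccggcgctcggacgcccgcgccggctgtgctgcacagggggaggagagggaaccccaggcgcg
VIM (chr10:17227991-17228290, plus strand): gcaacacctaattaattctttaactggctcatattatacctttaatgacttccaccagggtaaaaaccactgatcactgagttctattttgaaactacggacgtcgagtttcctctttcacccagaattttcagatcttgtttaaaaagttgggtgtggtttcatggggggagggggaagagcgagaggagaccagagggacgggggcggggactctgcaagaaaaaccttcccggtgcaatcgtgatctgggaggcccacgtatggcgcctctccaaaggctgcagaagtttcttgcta
ZEB1 (chr10:31318966-31319265, plus strand): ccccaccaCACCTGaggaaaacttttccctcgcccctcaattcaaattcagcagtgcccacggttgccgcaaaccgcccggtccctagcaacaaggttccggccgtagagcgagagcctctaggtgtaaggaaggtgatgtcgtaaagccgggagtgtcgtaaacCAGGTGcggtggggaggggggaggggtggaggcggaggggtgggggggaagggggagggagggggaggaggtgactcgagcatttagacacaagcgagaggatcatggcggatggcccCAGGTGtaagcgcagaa
The ZEB1 window shown was chosen among 7 windows of the gene because it held the most matches, 3 to CACCTG. Of the 7 windows, 2 held the motif. The motif was found on either strand in 20.6% of all 35116 windows of this length. TGACGTCA, which is its own reverse complement and does not overlap CACCTG, was found once in the FN1 window and in 1.85% of all windows. The FN1 promoter was already known for this motif, which was chosen after values were seen. Its presence there is therefore not a result, and a link to the FN1 level was not tested. Neither the FN1 nor the VIM window held CACCTG, which says only that these letters are not in these windows.

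The levels of the 10 genes spanned a wide range within each condition, and the range was similar across conditions. VIM was by far the most abundant member, with 540.0, 545 and 605 FPKM. It stood at rank 73, 56 and 62 of all genes in the 3 columns. The epithelial cadherins came next. CDH3, the P-cadherin of basal epithelial cells, was at 45.1, 111 and 48.2 FPKM, and CDH1 was at 27.9, 52.6 and 23.7 FPKM. Both were highest in the libraries labelled CD24 KO. The cells thus carried epithelial cadherin RNA and abundant VIM RNA side by side in every condition. CDH2, the N-cadherin of mesenchymal and neural cells, was listed at 0 in all columns.
ZEB1, a zinc finger repressor of epithelial genes, was the most abundant of the 5 transcription factors in each column, with 10.8, 9.74 and 9.96 FPKM. SNAI1, the Snail repressor, was at 8.65, 5.55 and 6.96 FPKM. SNAI2, the related repressor Slug, was at 1.47, 4.07 and 1.63 FPKM. SNAI1 was thus highest in Scr and SNAI2 in the libraries labelled CD24 KO. ZEB2, the paralogue of ZEB1, stayed under the 1 FPKM minimum with 0.0448, 0.22 and 0.137 FPKM, and TWIST1, a basic helix-loop-helix factor, was listed at 0 in all columns. FN1, the fibronectin of the extracellular matrix, was at 3.62, 7.83 and 3.33 FPKM.

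**Figure D1:**
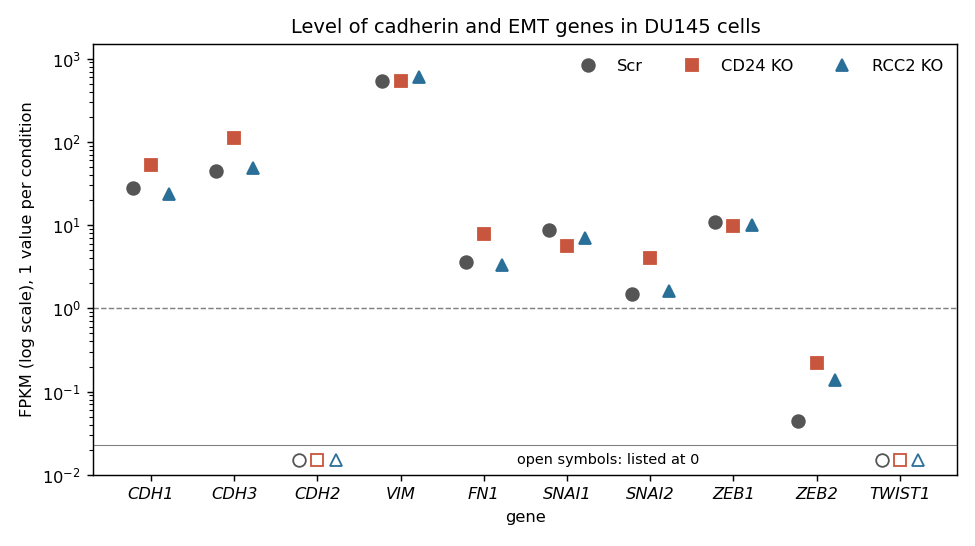
FPKM of the 10 genes (log axis) in Scr (circles), CD24 KO (squares) and RCC2 KO (triangles), 1 value per condition with no error bar available; the dashed line marks 1 FPKM and open symbols are genes listed at 0. VIM lies above every other member in each condition, while the CD24 KO squares of CDH1, CDH3, FN1 and SNAI2 lie above both other symbols.

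Differences were taken as differences of log2(FPKM + 1) over the 12822 genes with at least 1 FPKM in at least 1 column, a scale on which differences of low genes are understated. The 7 members compared had at least 1 FPKM in every column, so none entered through its highest condition alone. CDH2, ZEB2 and TWIST1 were left out of this comparison by the minimum. The members were chosen with earlier results of these data known. Their shares beside those of all genes are therefore descriptions and not a sign of an excess.

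In the libraries labelled CD24 KO, both epithelial cadherins, FN1 and SNAI2 were higher than in Scr, VIM and ZEB1 were close to it, and SNAI1 was lower. CDH3 had the widest difference, 1.28 on the log2 scale or 2.46 times the Scr level, at rank 142 of 12822 genes from the highest. CDH1 differed by 0.89, or 1.88 times the Scr level, at rank 478. SNAI2 differed by 1.04, or 2.78 times, at rank 310. FN1 differed by 0.93, or 2.16 times, at rank 419. The genes with higher levels thus included cadherins of epithelial cells as well as genes that are commonly listed as mesenchymal. SNAI1 differed by -0.56, at 0.642 of the Scr level. VIM differed by 0.01 (1.01 times), which became 0.30 under quantile normalization and 0.18 after rescaling over genes detected throughout. ZEB1 differed by -0.13 (0.905 times), which became 0.02 after that rescaling.
Of the 7 members, 2 (CDH3 and SNAI2) were at least 2-fold higher on the log2(FPKM + 1) scale and none was at least 2-fold lower, 28.6% of the members against 5.69% of all genes compared in either direction (2.67% higher and 3.03% lower). At a minimum of 1.5-fold, 4 members (57.1%) were higher and none lower, against 21.1% of all genes in either direction (9.55% higher and 11.6% lower). The median difference over the members was 0.89, beside -0.03 over all genes. By plain FPKM ratio FN1 also passed the 2-fold minimum, as did 6.84% of the genes with at least 1 FPKM throughout. Under quantile normalization CDH1 (1.04) passed and SNAI2 (0.98) did not, and after rescaling CDH1 (1.07) and FN1 (1.19) passed as well. The SNAI2 call also depended on the pseudocount, since its Scr level of 1.47 FPKM is low. Its difference was 1.41 with a pseudocount of 0.1 and 0.49 with one of 5.

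In the libraries labelled RCC2 KO, all 7 members lay within 0.28 of Scr on the log2 scale. VIM had the highest difference, 0.16 or 1.12 times the Scr level, and 21.2% of all genes compared had a higher one. CDH1 differed by -0.23, at 0.849 of the Scr level, and CDH3 by 0.09, at 1.07 times. The neighbouring cadherin genes thus lay on opposite sides of Scr, both close to it. SNAI1 was the lowest with -0.28, or 0.805 of the Scr level. FN1 differed by -0.09, SNAI2 by 0.09 and ZEB1 by -0.10. No member was at least 2-fold or 1.5-fold different in either direction, where 1.2% (0.406% higher and 0.796% lower) and 5.27% (1.45% higher and 3.82% lower) of all genes compared were. By plain ratio the share was 1.48%, again with no member. The median over the members was -0.09, beside -0.0036 over all genes. The comparisons with Scr share the Scr column, so their values are given side by side and were not correlated.

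**Figure D2:**
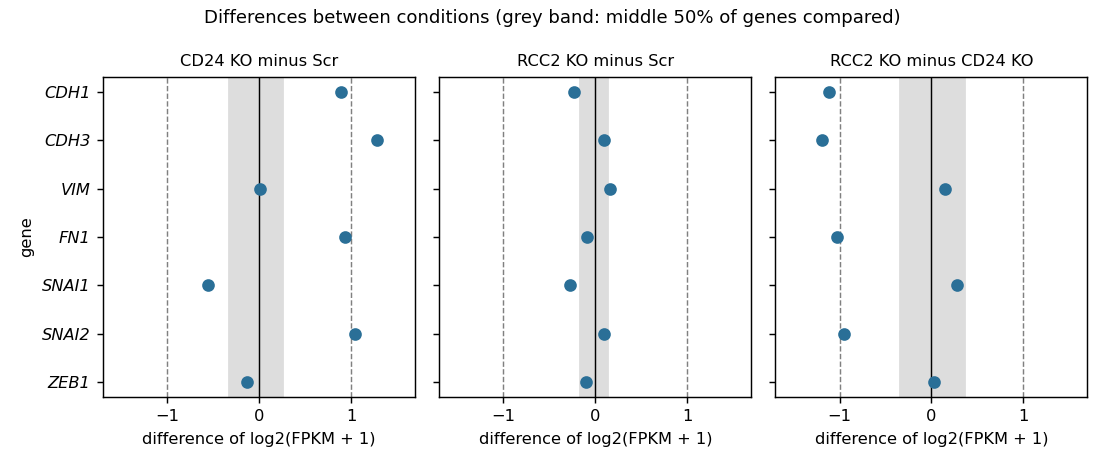
Difference of log2(FPKM + 1) for the 7 members compared (points) in each comparison; dashed lines mark 2-fold and the grey band holds the middle 50% of all genes compared. CDH1, CDH3, FN1 and SNAI2 stand at 0.89 to 1.28 in CD24 KO minus Scr and at -0.95 to -1.19 in RCC2 KO minus CD24 KO.

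**Figure D3:**
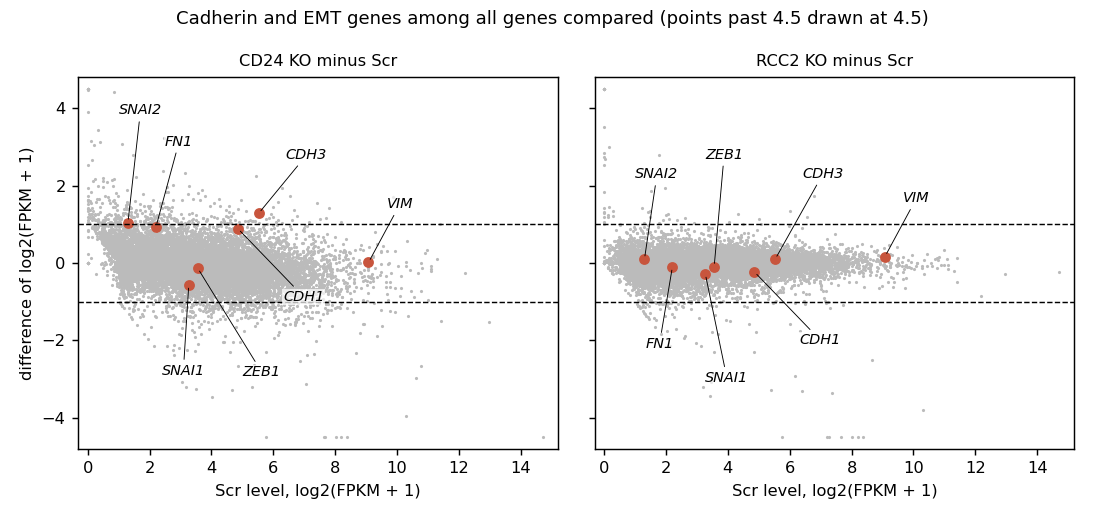
Difference from Scr (vertical axis, log2) against the Scr level (horizontal axis, log2) for 12822 genes (grey) with the 7 members in red. Dashed lines mark 2-fold, and points beyond the axis range are drawn at its edge. In CD24 KO, CDH3 lies above the upper line with 1.28, whereas in RCC2 KO the members lie between the lines, from -0.28 to 0.16.

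Set directly against the libraries labelled CD24 KO, the libraries labelled RCC2 KO had lower CDH1, CDH3, FN1 and SNAI2. The log2 difference was -1.19 for CDH3, -1.12 for CDH1, -1.03 for FN1 and -0.95 for SNAI2. The levels in the libraries labelled CD24 KO were 2.30 times (CDH3), 2.22 times (CDH1), 2.35 times (FN1) and 2.51 times (SNAI2) those in the libraries labelled RCC2 KO. Of the 7 members, 3 (CDH1, CDH3 and FN1) were at least 2-fold lower and none was at least 2-fold higher, 42.9% against 8.31% of all genes compared in either direction (4.02% higher and 4.3% lower). At a minimum of 1.5-fold 4 members (57.1%) were lower, with SNAI2 the fourth, against 27.9% of all genes (13.8% higher and 14.1% lower). By plain ratio the same 4 passed the 2-fold minimum, as did 10.8% of genes. FN1 was at -0.98 under quantile normalization, just inside the minimum. SNAI1 differed by 0.28 and ZEB1 by 0.03, the latter -0.01 after quantile normalization and -0.11 after rescaling. VIM differed by 0.15 in the deposited scaling, -0.13 after quantile normalization and 0.01 after rescaling, so its direction between the knockouts depended on how the columns were scaled. The rescaling itself moved the median of all genes to 0.12 in CD24 KO against Scr and to -0.12 in RCC2 KO against CD24 KO.

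FPKM is a level per length, so genes can be set beside each other within a column. The summed FPKM of CDH1, CDH2 and CDH3 was 73.1, 164 and 72.0. CDH1 made up 38.2%, 32.1% and 33.0% of these sums, and CDH3 the rest. P-cadherin RNA was therefore the larger part in each condition, at 1.62, 2.11 and 2.03 times the CDH1 level. VIM was at 19.3, 10.4 and 25.5 times the CDH1 level. Under the CD24 KO label VIM was nearly at its Scr level and CDH1 was higher, and under the RCC2 KO label CDH1 was lower and VIM higher, each by less than 1.5-fold.
The summed FPKM of the 5 transcription factors was 20.9, 19.6 and 18.7. ZEB1 made up 51.5%, 49.7% and 53.3% of it. The SNAI1 share was 41.3%, 28.3% and 37.3%, and the SNAI2 share 7.01%, 20.8% and 8.70%. SNAI1 was at 5.90, 1.36 and 4.28 times the SNAI2 level. The Snail family thus differed in its make-up more than in the summed level of all 5 factors.

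**Figure D4:**
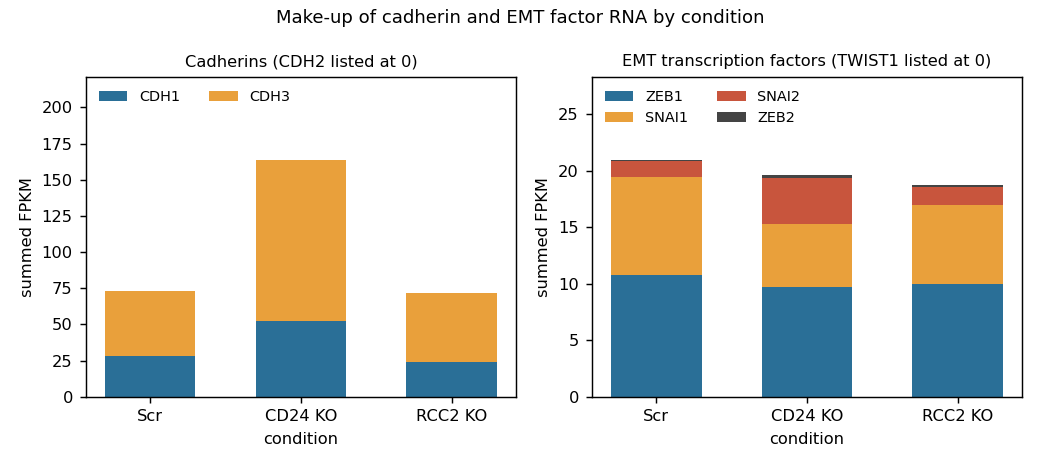
Summed FPKM (bars from 0) of the cadherins CDH1 and CDH3 (left) and of ZEB1, SNAI1, SNAI2 and ZEB2 (right) in each condition, 1 value per gene and condition. The cadherin bar of CD24 KO reaches 164 FPKM against 73.1 in Scr, while the factor bars stay between 18.7 and 20.9 FPKM with a wider SNAI2 part in CD24 KO.

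The positions of the members bear on how their values can be read. The coordinates are those of the table and were read as hg19. VIM lies on chromosome 10 from 17256238 to 17279592, a locus it shares with VIM-AS1, an antisense RNA at 1.27, 0.733 and 1.28 FPKM. ZEB1, on chromosome 10 from 31605457 to 31818742, shares its locus with ZEB1-AS1, at 3.05, 4.29 and 2.14 FPKM. The study's methods name a stranded kit, but whether counting used strand is not given in the sources used here, so fragments of these pairs may have been divided. VIM-AS1 was at most 1.28 FPKM beside at least 540.0 FPKM for VIM. ZEB2 and ZEB2-AS1 also share a locus, and the latter was listed at 0. FN1 lies on chromosome 2 from 216225163 to 216300793 and SNAI1 on chromosome 20 from 48599513 to 48605420, without an overlapping gene in the table.
CDH3 (chromosome 16, 68678739 to 68732970) and CDH1 (68771193 to 68869445) are tandem neighbours, 38222 bases apart. Because the pair was higher together in the libraries labelled CD24 KO, the 18 other genes within 500 kb of the pair were listed, a choice made after the values had been seen. Of these, 16 were compared, and none was at least 2-fold different in CD24 KO against Scr, with a range from -0.80 to 0.59 and a median of -0.43. The 2 cadherins, at 0.89 and 1.28, lay above all 16. In RCC2 KO against CD24 KO the 16 neighbours ranged from -0.84 to 1.11 and both cadherins lay below them. There 3 of the 16 (ESRP2, NIP7 and PDF) were at least 2-fold different, all higher, beside 8.31% of all genes compared in either direction.

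Lists of related genes were written by role, 173 genes in the table, of which 117 were compared. In the libraries labelled CD24 KO, 3 were at least 2-fold higher and 7 lower than in Scr (8.55%, against 5.69% of all genes). In those labelled RCC2 KO, 1 was higher and 1 lower (1.71%, against 1.20%). Between the knockouts, 7 were higher and 4 lower in RCC2 KO (9.4%, against 8.31%). Their medians were 0.02, -0.02 and -0.01. The shares of the related genes lay nearer to those of all genes than the shares of the members did in the comparisons with CD24 KO. Members and lists were both chosen with earlier results of these data known, so this does not set the members apart.

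The adhesion partners did not share the difference of the cadherins as a group. Of 16 other cadherin genes, 10 were listed at 0 in every column and only CDH24 was compared, at 5.84, 6.60 and 5.16 FPKM. Of 12 catenins and partners compared, none was 2-fold different in CD24 KO against Scr, and the median was -0.08. β-catenin (CTNNB1), which links cadherins to α-catenin and also acts in Wnt signaling, was at 63.1, 61.8 and 67.3 FPKM, and p120-catenin (CTNND1), which stabilises cadherins at the membrane, at 87.3, 79.9 and 77.9 FPKM. α-catenin (CTNNA1), the link to actin, was at 176, 117 and 173 FPKM. Plakoglobin (JUP), the catenin shared by adherens junctions and desmosomes, was at 89.0, 44.7 and 42.0 FPKM, with differences from Scr of -0.98 and -1.06. Among 9 desmosomal genes compared, desmoplakin (DSP), which anchors keratin filaments, was the 1 gene past the minimum, at 64.8, 24.1 and 41.2 FPKM and a difference of -1.39 in CD24 KO.

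Genes that mark or maintain the epithelial state were mixed. Of 16 epithelial surface and junction genes compared, 12 were higher and 4 lower in CD24 KO against Scr, with a median of 0.29, and MAL2 (1.04), a membrane trafficking protein, and CRB3 (1.03), of the apical Crumbs complex, were at least 2-fold higher. EPCAM was at 58.9, 44.9 and 58.6 FPKM. In RCC2 KO against Scr 8 were higher and 8 lower, with a median of 0.02. TJP3, a tight junction scaffold, was at 5.28, 8.08 and 2.82 FPKM, -1.25 between the knockouts.
Of 18 factors that maintain the epithelial state 8 were compared, and 7 were higher in CD24 KO with a median of 0.27, none by 2-fold. GRHL2 and OVOL2, opponents of ZEB1, were under the minimum. ESRP2, an epithelial splicing regulator, was at 5.94, 3.75 and 8.60 FPKM, with a difference between the knockouts of 1.02.

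Other inducers of EMT did not follow SNAI2 as a group. Of 16 such factors 9 were compared, with 5 higher and 4 lower in CD24 KO, a median of 0.09 and none 2-fold different in any comparison. TWIST2, the paralogue of TWIST1, was at 3.37, 4.29 and 3.28 FPKM. For TGF-β ligands, receptors and SMADs, which signal upstream of these factors, the median of 17 genes was 0.06 in CD24 KO and -0.13 in RCC2 KO. LTBP3, which binds latent TGF-β in the matrix, was at 17.0, 27.7 and 12.4 FPKM, -1.10 between the knockouts. Among 17 corepressors of CDH1 and regulators of SNAI1 protein, EZH2, the histone methyltransferase of Polycomb complex 2, was the 1 gene past the minimum, at 34.8, 16.0 and 39.0 FPKM and a difference of -1.07 in CD24 KO. GSK3B, the kinase that marks SNAI1 protein for degradation, was at 15.8, 22.8 and 17.0 FPKM.

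The mesenchymal genes other than VIM and FN1 had no common direction in CD24 KO. Of 30 structural and matrix genes 16 were compared, and the median was -0.12 in CD24 KO and -0.05 in RCC2 KO. In CD24 KO 7 were higher and 9 lower than in Scr. Past the 2-fold minimum 1 was higher and 2 were lower there, beside 2.67% and 3.03% of all genes compared. TAGLN, the actin-binding protein transgelin, was at 20.3, 4.13 and 23.0 FPKM, and S100A4, a calcium-binding protein of motile cells, at 42.0, 12.8 and 31.4 FPKM, with log2 differences of -2.05 and -1.64 in CD24 KO. FBN1, fibrillin of matrix microfibrils, was the 1 gene of this list at least 2-fold higher there, with 0.182, 1.54 and 0.170 FPKM and a difference of 1.10. It entered the comparison only through its CD24 KO value, the one column in which it reached 1 FPKM, so that the filter itself favoured this call. Among 12 other intermediate filament and linker genes compared, 6 were higher and 6 lower in CD24 KO, with a median of 0.05. None was at least 2-fold higher and 3 were at least 2-fold lower, where 3.03% of all genes compared were. These 3 were the neuronal filament INA (10.1, 1.32 and 7.76 FPKM) and the nuclear lamins LMNB1 (69.7, 24.5 and 74.3 FPKM) and LMNB2 (98.5, 46.9 and 110.0 FPKM). VIM, the most abundant filament of this class, differed by 0.01 in CD24 KO, near the median of these 12 genes.

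**Figure D5:**
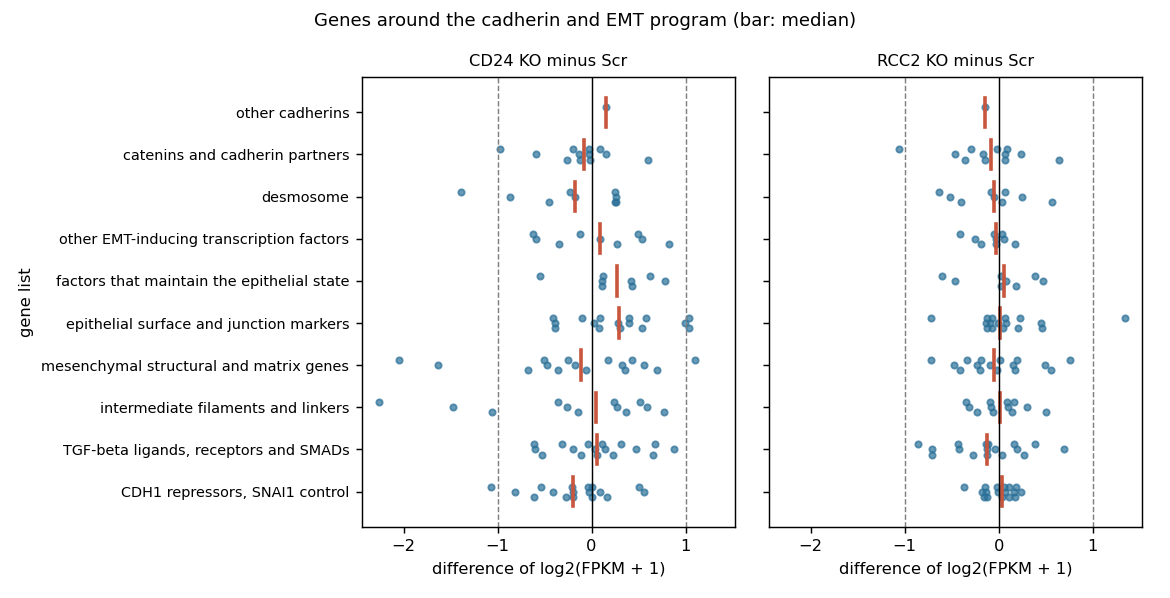
Difference of log2(FPKM + 1) from Scr for each gene compared (points) in 10 lists of related genes, with the list median as a bar and 2-fold as dashed lines. Medians run from -0.20 to 0.29 in CD24 KO and from -0.15 to 0.05 in RCC2 KO.

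Likeness of pattern was measured as the Euclidean distance between the pairs of differences from Scr, over genes with a mean of at least 5 FPKM. With 3 columns this is a weak measure. TNFSF12, STAT2 and KLHDC2 were nearest to CDH1, with distances of 0.020, 0.034 and 0.043, and 15 of 8840 genes lay within 0.1. PLP2, CKS2 and NSF were nearest to VIM, with distances of 0.0030, 0.0042 and 0.0047, and 379 genes lay within 0.1. These counts follow from how far each gene lay from the bulk of all genes and are not a separate result. In CD24 KO against Scr, 45.6% of all genes compared had a higher difference than VIM and 3.72% a higher one than CDH1.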

How the data were processed

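RNA from 6 libraries of DU145 cells was sequenced. The authors deposited 1 FPKM value per gene for each of 3 conditions, so no value per library was used. The submitters' processing notes name HISAT, StringTie, Cufflinks and GATK, without versions or order. Depth and genome build are not given in the sources used here. Of 25136 symbols found in RefSeq GRCh38.p14, 15.4% overlapped their GRCh38 position, so coordinates were read as hg19, and starts were written from 1.

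Genes with at least 1 FPKM in at least 1 column were compared as log2(FPKM + 1). A gene at least 2-fold different took the place of a test, since limma could not be run on 1 value per condition. The members and the gene lists, written from memory, were chosen with earlier results of these data known. All members are named, and from each list up to 4 genes with the widest difference of at least 2-fold and at least 5 FPKM in the higher column. Some genes under this rule are not reported here. Single members of lists given beside them for their role, the neighbours of CDH1, FBN1, MIR200CHG, TGACGTCA and the plain ratio were chosen after values were seen. The calculations were tested on simulated data. Alternatives were pseudocounts of 0.1 and 5, other filters, quantile normalization, median centring, rescaling each column to one sum over genes above 0 in every column, a 1.5-fold minimum and VIM left out. Python 3.11.15, NumPy 2.4.6, pandas 2.3.3 and matplotlib 3.10.9 were used.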

Additional observations from a re-analysis of the deposited data

How the results depend on the processing

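No paired analysis was possible because the table holds 1 value per condition, and no library could be left out for the same reason. The depth behind each value is unknown. A pseudocount, a filter, a fold minimum or leaving out VIM cannot change the direction of a member's difference. Quantile normalization, median centring and rescaling can, and under these no member at least 2-fold different changed direction. Their shifts were small beside a 2-fold difference, so this is a weak check. The number of members at least 2-fold different in CD24 KO against Scr, 2 as reported, was 1 with a pseudocount of 5, 4 after rescaling and 4 at a 1.5-fold minimum. With a pseudocount of 5, CDH3 stayed past the minimum and SNAI2, at 0.49, did not. The median over the members in CD24 KO was 0.49 with a pseudocount of 5, 0.12 with no filter, which adds the 3 members near 0, and 1.07 after rescaling. In RCC2 KO against CD24 KO, where the median was -0.95, it was -1.15 with a pseudocount of 0.1, -0.45 with a pseudocount of 5, -0.051 with no filter, -0.80 after quantile normalization and -1.27 after rescaling, and 2 to 4 members were at least 2-fold different. By plain ratio, 3 members in CD24 KO and 4 between the knockouts passed. In RCC2 KO against Scr no member passed under any alternative. Over all genes, a pseudocount of 5 took the number at least 2-fold different in CD24 KO from 730 to 278, one of 0.1 took it to 1262 and rescaling took it to 1071. In RCC2 KO the number went from 154 to 54 and 443, and to 67 with 1 FPKM in every column and 235 after rescaling. Between the knockouts it went from 1066 to 380 and 1850, and to 1614 after rescaling. The 1.5-fold minimum gave 2709, 676 and 3580 genes.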

Other observations

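MIR200CHG, the host transcript of miR-200c and miR-141, microRNAs known to repress ZEB1 and ZEB2, was at 1.36, 5.22 and 1.75 FPKM in Scr, CD24 KO and RCC2 KO. Its log2 difference from Scr was 1.40 in CD24 KO and 0.22 in RCC2 KO, and ZEB1 was at 10.8, 9.74 and 9.96 FPKM. The microRNA genes MIR200C and MIR141 share this locus and were listed at 0 in every column. MIR200CHG was picked after its values had been seen.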
